A study of Arabidopsis thaliana with 9 samples.

Results

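Leaf-preferential lincRNAs of Arabidopsis thaliana are the subject here: long intergenic noncoding RNAs whose array signal was higher in leaf than in both inflorescence and root. A lincRNA was taken when its probe was well above background on at least 2 of the 3 leaf arrays, when its leaf mean exceeded both the inflorescence mean and the root mean by at least 1 log2 unit, and when its lowest leaf value exceeded the highest of the 6 values from the other organs. They were thus selected on their leaf, inflorescence and root values in the authors' log2 value table, where each lincRNA was read through the probe whose 9 values had the highest mean. It took 120 of the 4499 lincRNAs on the array (2.67%). The mirrored rule took 100 inflorescence-preferential and 187 root-preferential lincRNAs.

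Total RNA was hybridised to 1-colour Agilent arrays of a custom lincRNA design, 3 biological replicates each for leaf, inflorescence and root, all of wild-type Col-0 according to the growth protocol in the labels, although the ecotype entries carry a different running number for each sample. Leaf and root were taken from hydroponic plants 30 days old. Inflorescence, with open flowers, buds and very young siliques, was cut from plants 4 weeks old that were kept on solid medium or in a greenhouse. All plants had 22 °C and 16 h of light with 8 h of dark. Organ, age and culture therefore cannot be told apart wherever inflorescence is compared with leaf or with root, whereas leaf and root shared both. In whole organs, fewer cells of a type and less RNA per cell cannot be told apart either.

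A lincRNA is transcribed from the DNA between protein-coding genes, mostly by RNA polymerase II, and carries no long open reading frame. Many plant lincRNAs are present at low levels and in few organs. A small number have a known role in Arabidopsis, such as HID1, which acts in the light response of seedlings, and APOLO, which acts in auxin responses of the root. The lincRNAs below carry only the identifiers of the array design (AT, the chromosome, TU and a number), so no function is given for any of them.

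Signals are given as the scanner's processed signal on the log2 scale minus the 75th percentile of 1345 probes that were well above background on all 9 arrays. This quantity is called the scaled log2 signal. It compares 1 probe between arrays and does not compare levels between lincRNAs. Between 24.1% and 39.9% of probes were well above background on 8 of the arrays, but 10.7% were on leaf replicate 2. Replicates 1 and 2 of each organ were on 1 slide and replicate 3 on another. The preset organ marker lists could not check the labels, because none of their 15 photosynthesis, 14 root and 12 inflorescence genes were on the array. Of 9 light-signalling genes 8 were, and PIF4, PIL6, PIF3 and PIL5 followed the order leaf, inflorescence, root, while HFR1, HY5, PHYA and PHYB were not highest in leaf. PIF4, a bHLH factor of shade and warmth responses, averaged 4.84 in leaf, 1.58 in inflorescence and -4.26 in root. COR15A, a chloroplast protein of cold acclimation, averaged 6.05 in leaf, 2.80 in inflorescence and -5.76 in root.

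The margin by which leaf exceeded the higher of the other organs chose the lincRNAs and is therefore a description, with no test. In the authors' value table the margin ran from 1.01 to 6.57 log2 units with a median of 1.89. It reached 2 units in 55 lincRNAs, 3 units in 17 and 4 units in 9. Without the requirement on the margin, 201 of the 1496 lincRNAs detected on at least 2 leaf arrays (13.4%) had all leaf values above all others. Just inside the limit of 1 unit lay AT2TU031960 at 1.01, AT5TU089510 at 1.02 and AT1TU052240 at 1.03, and just outside it AT4TU039550 at 0.996, AT2TU017530 at 0.97 and AT3TU040120 at 0.96. These 6 differ by less than 0.1 units, so the limit cuts through a continuous range.

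On the scaled scanner signals, which the rule did not read but which come from the same probes and arrays and so largely restate it, leaf exceeded root by a median of 2.58 log2 units (range 0.96 to 9.03). It exceeded inflorescence by a median of 2.02 units (range 0.94 to 6.79). Leaf replicate 2 detected 80 of the 120, and undetected probes can read high on it, which can raise the scaled leaf means of the rest. The leaf values lay above all others in 100 of the 120, and overlapped in 20. Over the 2780 lincRNAs tested below that share was 7.63%, from which nothing is read because the rule chose on this very property. The margin fell under 1 unit in AT2TU048380 and AT5TU089510. On slide 1 the median margin was 1.67 units and on slide 2, with 1 array per organ, it was 2.30 units. The tested lincRNAs as a whole read lower on slide 2. Their median scaled signal there was -6.87 in leaf, -7.38 in inflorescence and -7.09 in root, against values between -5.63 and -5.27 on slide 1. The median SD of the replicates was 0.33 log2 units in leaf, against 0.53 in inflorescence and 0.59 in root. Over the tested lincRNAs these SDs were 0.97, 0.997 and 0.93 in the same order. The rule favours detected leaf values that lie close together, so these SDs are no separate finding.

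**Figure D1:**
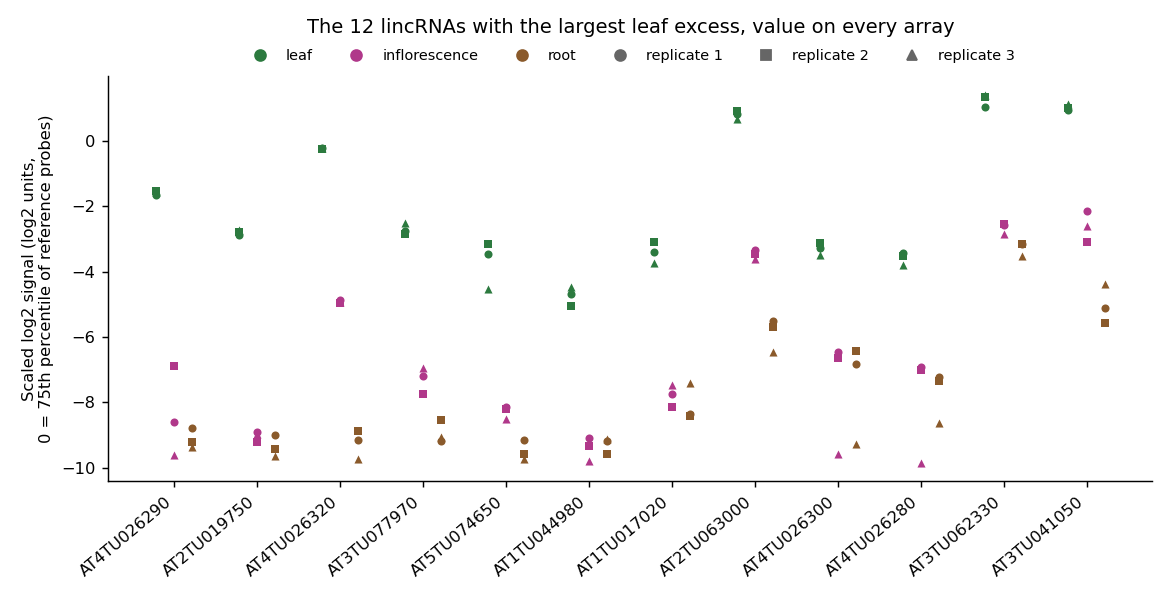
Scaled log2 signal (vertical axis, log2 units) of the 12 lincRNAs with the largest leaf margin in the authors' table, 1 point per array, with colour for the organ and shape for the replicate. In each, the 3 leaf points stand above the 6 others, while the order of inflorescence and root differs between lincRNAs: AT4TU026320 has inflorescence near -4.92 and root near -9.25, and AT4TU026300 has both near -7.5.

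AT4TU026290 had the largest margin. Its scaled log2 signals were -1.65, -1.52 and -1.55 on the leaf arrays, -8.60, -6.90 and -9.60 on the inflorescence arrays and -8.79, -9.23 and -9.35 on the root arrays. Its leaf values sat within 0.2 units of each other, and no array outside leaf was well above background. Where every array of an organ is below that limit, only a lower bound of the fold is known, computed against the lowest signal that counted as well above background on each array. For AT4TU026290 leaf was at least 46.4-fold higher than inflorescence and at least 51.5-fold higher than root.

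AT2TU019750 gave -2.87, -2.79 and -2.73 in leaf, against -8.92, -9.21 and -8.97 in inflorescence and -9.0003, -9.44 and -9.65 in root. It too was detected in leaf alone, at least 21.1-fold above inflorescence and at least 22.1-fold above root. Its pair of other probes did not share that pattern: their table margins were 0.02 and 0.70, and neither was detected on more than 1 leaf array.

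AT4TU026320 gave -0.22, -0.25 and -0.20 in leaf, -4.87, -4.96 and -4.93 in inflorescence and -9.14, -8.89 and -9.72 in root. The 3 organs formed steps that did not overlap. Leaf was 26.0-fold above inflorescence and at least 132-fold above root, where no array detected it.

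AT2TU063000 gave 0.82, 0.93 and 0.68 in leaf, -3.35, -3.45 and -3.60 in inflorescence and -5.50, -5.70 and -6.47 in root. It was detected on all 9 arrays, so that both differences are measured: 19.4-fold over inflorescence and 104-fold over root. AT3TU062330, also detected on all 9, gave 1.03, 1.35 and 1.41 in leaf, -2.57, -2.55 and -2.83 in inflorescence and -3.16, -3.14 and -3.53 in root. Its inflorescence and root values lay much closer together, at 15.1-fold and 23.3-fold below leaf.

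AT3TU041050 gave 0.94, 1.01 and 1.14 in leaf, -2.15, -3.10 and -2.61 in inflorescence and -5.10, -5.57 and -4.36 in root. AT3TU077970 gave -2.74, -2.83 and -2.52 in leaf, -7.18, -7.74 and -6.96 in inflorescence and -9.19, -8.53 and -9.07 in root. AT3TU041050 showed a stepped order of leaf, inflorescence and root. AT3TU077970 was detected on 1 inflorescence array and no root array, and its call between those organs (limma adjusted p = 0.00787) was lost under 6 other settings, among them the authors' value table (adjusted p = 0.222). AT5TU074650 and AT1TU044980 were not detected outside leaf. Leaf was at least 11.2-fold above inflorescence in AT5TU074650. In AT1TU044980, detected on 2 leaf arrays, the fold came to 5.50 and is not a strict lower bound. The other 3 of the 12, AT1TU017020, AT4TU026280 and AT4TU026300, had SDs between 0.33 and 1.75 units outside leaf.

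The 120 fell into 4 classes by where else they were detected. On no array outside leaf were 12 detected, 15 were detected on at least 1 inflorescence array and no root array, 4 on at least 1 root array and no inflorescence array, and 89 in both other organs. Of these 89, 58 were detected on all 6 arrays outside leaf, and 53 of the 120 were detected on all 9 arrays. Signal limited to leaf was therefore the smaller part of the group at this sensitivity. Of the 120, 79 were detected on 3 leaf arrays and 41 on 2; leaf replicates 1, 2 and 3 detected 120, 80 and 119. Over all lincRNAs those arrays detected 59.6%, 11.4% and 34.9%. The lower number on leaf replicate 2 was thus shared with the rest of the array.

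The 12 lincRNAs detected in leaf alone, named for their detection after their values were seen, were AT4TU026290, AT2TU019750, AT5TU074650, AT1TU044980, AT2TU037270, AT1TU002350, AT4TU028010, AT4TU002210, AT4TU026150, AT4TU003460, AT1TU001270 and AT5TU084180. Their excess over root, computed as above, ran down to 2.04-fold in AT5TU084180. The first 3 were detected on all 3 leaf arrays, and the other 9 on 2, so the folds of these 9 are not strict lower bounds. Among the 15 detected in inflorescence and on no root array, the bound of leaf over root reached 70.7-fold in AT5TU002970, 51.2-fold in AT5TU042690 and 39.0-fold in AT1TU038050, beside the 132-fold of AT4TU026320. Their measured excess over inflorescence was smaller, at 9.23-fold, 6.42-fold and 8.76-fold in the order given. The 4 detected in root and not in inflorescence were AT3TU040390, AT1TU090190, AT4TU044490 and AT5TU045490. Leaf was at least 49.97-fold above inflorescence in AT3TU040390 and at least 7.16-fold in AT1TU090190. Computed alike, the fold was 4.95 in AT4TU044490 and 2.85 in AT5TU045490. AT4TU044490 was detected on 2 leaf arrays, so its fold is not a strict lower bound.

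**Figure D2:**
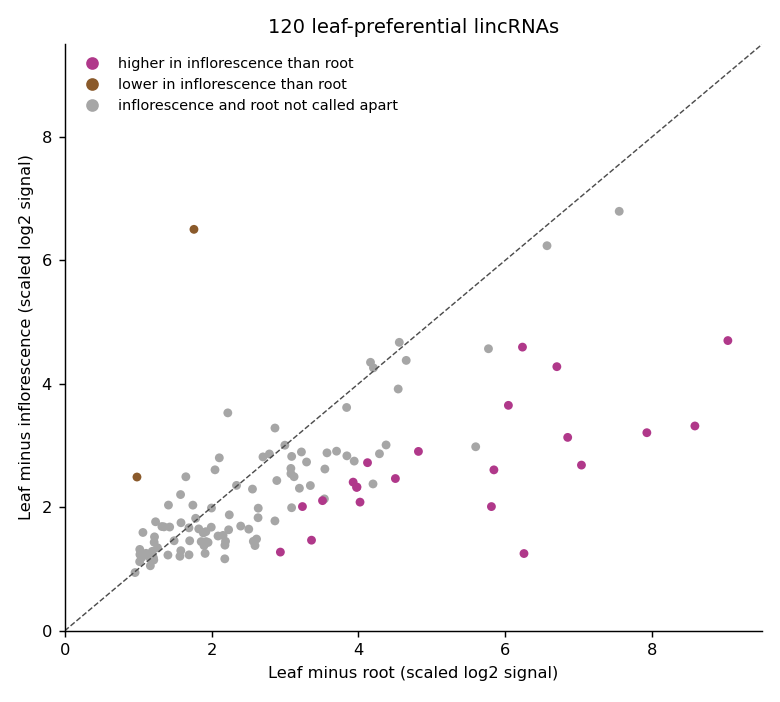
Leaf minus root (horizontal axis) against leaf minus inflorescence (vertical axis), both in scaled log2 units, 1 point per lincRNA, with the dashed line where inflorescence and root are equal. Points right of the line are higher in inflorescence than in root: 85 of the 120 are, and 22 of them are called, while 2 are called on the other side.

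The rule placed inflorescence and root below leaf and did not order them, so the difference between these organs could be tested. Of the 120, 22 were higher in inflorescence than in root, 2 were lower and 96 were not called. The test was limma over 3308 genes detected on at least 2 arrays of an organ, with a call at an adjusted p under 0.05 (Benjamini-Hochberg over all of them) and at least 2-fold. The share called higher was 18.3%, against 3.99% of the 2780 tested lincRNAs and 6.41% of all tested genes. The share called lower was 1.67%, against 6.15% of the tested lincRNAs and 7.77% of all tested genes. All tested lincRNAs thus had more calls toward root, and the leaf-preferential ones more toward inflorescence. The tested lincRNAs include the 187 root-preferential and 100 inflorescence-preferential ones, which the rule could not take. The gap between these shares is therefore partly set by the rule. The same limit may apply to the comparison sets of the next paragraph. All 24 called lincRNAs had inflorescence and root values that did not overlap, which largely restates the call, as it needs a difference large against the spread.

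The median of inflorescence minus root was 0.46 log2 units over the 120 (range -4.74 to 5.26), against -0.24 over the tested lincRNAs and -0.23 over all tested genes. Single arrays moved it: it was 0.06 without root replicate 3, where the median of all genes was -0.80, and 0.89 without inflorescence replicate 3, where that of all genes was 0.38. It was 0.25 without inflorescence replicate 2, 0.27 without inflorescence replicate 1, 0.75 without root replicate 1, 0.18 with the mean of all probes and 0 with a common floor. At any size, 85 of the 120 (70.8%) were higher in inflorescence, against 31.3% of the tested lincRNAs. Within the slides, 87 of the 120 were higher in inflorescence on slide 1 and 85 on slide 2. The comparison was also made with lincRNAs that met the same detection minimum in leaf: of 1376 other lincRNAs detected on at least 2 leaf arrays, 3.56% were called higher and 8.21% lower. The sets are not matched in how often leaf detected them: leaf replicate 2 detected 66.7% of the 120 and 11.4% of all lincRNAs. Among lincRNAs detected on all 9 arrays, 10 of 53 leaf-preferential ones were called higher and 1 lower, against 17 and 37 of 349 others. Inflorescence values lay above root without overlap in 32 of the 120 and below it in 5, against 7.95% and 14.8% of the tested lincRNAs.

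**Figure D3:**
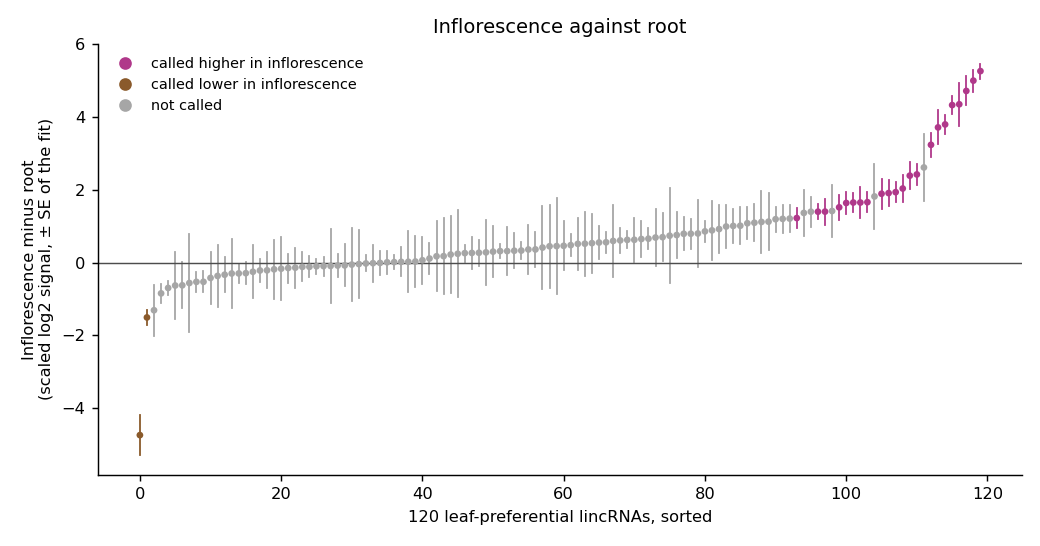
Inflorescence minus root (vertical axis, scaled log2 signal) for the 120 lincRNAs, sorted, with bars for the standard error of the fit and colour for the call. The values run from -4.74 to 5.26 with 22 called higher and 2 called lower, and most of the uncalled points lie above 0.

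AT3TU041570 had the largest difference. It gave 7.70, 7.69 and 7.71 in leaf, 4.39, 4.57 and 4.19 in inflorescence and -0.77, -0.85 and -1.03 in root. It was detected on all 9 arrays, with leaf at 9.96-fold over inflorescence and 383-fold over root. Inflorescence exceeded root by 5.26 ± 0.21 log2 units (SE from 3 arrays of each organ; limma, adjusted p = 3.21e-06). The pair of other probes for AT3TU041570 was detected on 1 leaf array each, with table margins of -0.53 and 0.99. With the mean of its probes the difference was 1.46 units and not called (limma adjusted p = 0.549).

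AT1TU097140 gave -2.38, -2.82 and -1.89 in leaf, -3.73, -3.67 and -3.43 in inflorescence and -8.96, -8.43 and -8.45 in root. Root was below detection, so inflorescence was at least 12.6-fold higher than root (limma difference 5.003 ± 0.31, adjusted p = 2.95e-05), while leaf exceeded inflorescence by 2.38-fold. It was detected in leaf and inflorescence alike.

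AT5TU002970 gave -1.44, -1.34 and -0.57 in leaf, -4.42, -4.39 and -4.17 in inflorescence and -9.11, -8.35 and -9.68 in root. AT5TU042690 gave -1.26, -1.26 and -2.23 in leaf, -3.72, -4.15 and -4.93 in inflorescence and -8.89, -7.49 and -9.47 in root. Both were undetected in root, and the leaf replicates had SDs of 0.48 and 0.56 units in the order given. Inflorescence was at least 7.65-fold above root in AT5TU002970 (limma adjusted p = 0.000154) and at least 7.97-fold in AT5TU042690 (limma adjusted p = 0.0018). With the mean of all probes neither was called, at limma adjusted p = 0.0608 and 0.557. In AT4TU026320 inflorescence was at least 5.07-fold above root (limma adjusted p = 2.48e-05).

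Among the lincRNAs with the largest margins detected in all organs, AT2TU063000 was 2.42 ± 0.29 log2 units higher in inflorescence than in root (SE, limma adjusted p = 0.00102), a call lost with normexp (adjusted p = 0.489) and, for its size, with the common floor. AT3TU041050 was 2.39 ± 0.38 units higher (limma adjusted p = 0.0039), a call lost with normexp (adjusted p = 0.258), the mean of all probes (adjusted p = 0.92) and the 75th percentile of all probes (adjusted p = 0.0724). AT3TU062330, at 0.63 ± 0.23 units, was not called (limma adjusted p = 0.14). In AT2TU035190, chosen after its values were seen, inflorescence and root nearly coincided: it gave -2.45, -2.58 and -2.44 in leaf, -5.16, -5.30 and -6.02 in inflorescence and -5.18, -5.26 and -6.02 in root. Leaf was 8.03-fold above inflorescence and 7.99-fold above root in it.

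The 2 lincRNAs lower in inflorescence than in root differed in kind. AT3TU040390 gave -1.67, -1.58 and -1.43 in leaf, -6.95, -7.85 and -9.37 in inflorescence and -3.33, -3.37 and -3.25 in root. It was present in leaf and root and undetected in inflorescence, with root at least 14.8-fold above inflorescence (limma adjusted p = 0.000846) and leaf 3.39-fold above root. With normexp the call was lost (difference -0.64, limma adjusted p = 0.858). AT2TU048380 gave 0.36, 0.50 and 0.77 in leaf, -1.85, -2.04 and -1.94 in inflorescence and -0.54, -0.54 and -0.25 in root. It was detected in all 3 organs, with inflorescence 1.51 ± 0.22 units below root (SE, limma adjusted p = 0.00259), but that call was lost under 4 of the other settings, among them array-median scaling (adjusted p = 0.281).

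The number of calls changed with the background model, a common floor, the scaling and the use of probe means, and the cause was not tested. With the 75th percentile of all probes, array-median scaling or the mean of all probes, fewer of the 120 were called. There the share called in either direction was no higher among the 120 than over all tested genes, as the closing section gives. With the normexp background model 2 of the 120 were higher and 0 lower, and 53 and 39 of all tested genes were called. There 115 of the 120 had a positive difference, but the median of all genes was itself 0.33, close to the 0.42 of the 120. Of the 10 lincRNAs whose calls are named here, AT3TU041570 alone kept its call with normexp. With the common floor AT4TU026320, AT1TU097140, AT5TU002970, AT5TU042690, AT3TU040390, AT2TU063000 and AT3TU077970 lost theirs. Without leaf replicate 2 the counts were 21 and 2, beside 231 and 274 of all tested genes. Of the 22 called higher, 10 had no root array well above background, so that the size of their difference is set by signals below the detection limit.

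The 120 lay on all 5 chromosomes, with 35 of 1163 lincRNAs on chromosome 1, 22 of 908 on chromosome 2, 22 of 776 on chromosome 3, 22 of 659 on chromosome 4 and 19 of 993 on chromosome 5. These shares ran from 1.91% on chromosome 5 to 3.34% on chromosome 4. The numbers in the names follow the order of the start positions that some probe names carry, so neighbours on the array can be read from the names. Of the 120, 13 had an adjacent leaf-preferential lincRNA, in 1 run of 5 and 4 runs of 2. Of the 240 lincRNAs adjacent to the 120, 16 were leaf-preferential (6.67%), against 2.67% of all lincRNAs. The run of 5 weighs heavily in that share, and the difference was not tested. The runs of 2 were AT1TU097390 with AT1TU097450, AT2TU007920 with AT2TU007940, AT5TU045250 with AT5TU045490, and AT5TU089510 with AT5TU089620. Whether adjacent names belong to 1 transcript was not tested.

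The run of 5 lay on chromosome 4 and held AT4TU026260, AT4TU026280, AT4TU026290, AT4TU026300 and AT4TU026320, with AT4TU026150 a few names before it. It falls between AT4TU025670, whose probe name gives a start of 7729442, and AT4TU027150, with a start of 8131889, in a genome build not given in the sources used here. Of the 17 lincRNAs named from AT4TU026050 to AT4TU026520, 6 were leaf-preferential. They held the first and the third largest margins of all 120.

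AT4TU026280 gave -3.41, -3.51 and -3.80 in leaf, -6.91, -6.99 and -9.85 in inflorescence and -7.23, -7.34 and -8.64 in root. AT4TU026300 gave -3.29, -3.13 and -3.49 in leaf, -6.47, -6.64 and -9.57 in inflorescence and -6.82, -6.43 and -9.28 in root. In both, leaf lay more than 3 units above each other organ in every replicate, and replicate 3, on slide 2, was the lowest outside leaf. The tested lincRNAs as a whole also read lower on slide 2. AT4TU026260 had the smallest margin of the run, with -4.60, -4.52 and -5.27 in leaf, -6.15, -5.96 and -8.90 in inflorescence and -5.84, -5.46 and -7.82 in root. Of the 5, AT4TU026320 alone was called different between inflorescence and root by limma; the adjusted p was 0.695 in AT4TU026290 and 0.999 in the other 3.

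The run ended sharply. The next lincRNA, AT4TU026340, had a margin of -0.05 units in the table, with -5.17, -4.99 and -6.15 in leaf, -4.80, -5.47 and -6.66 in inflorescence and -5.32, -5.38 and -6.43 in root, which overlap. Before the run, AT4TU026070 was high in another organ: it gave -7.36, -4.16 and -9.06 in leaf, -6.58, -6.25 and -7.50 in inflorescence and -2.39, -2.73 and -1.58 in root. The stretch thus held a root-high lincRNA beside the leaf-high ones.

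**Figure D4:**
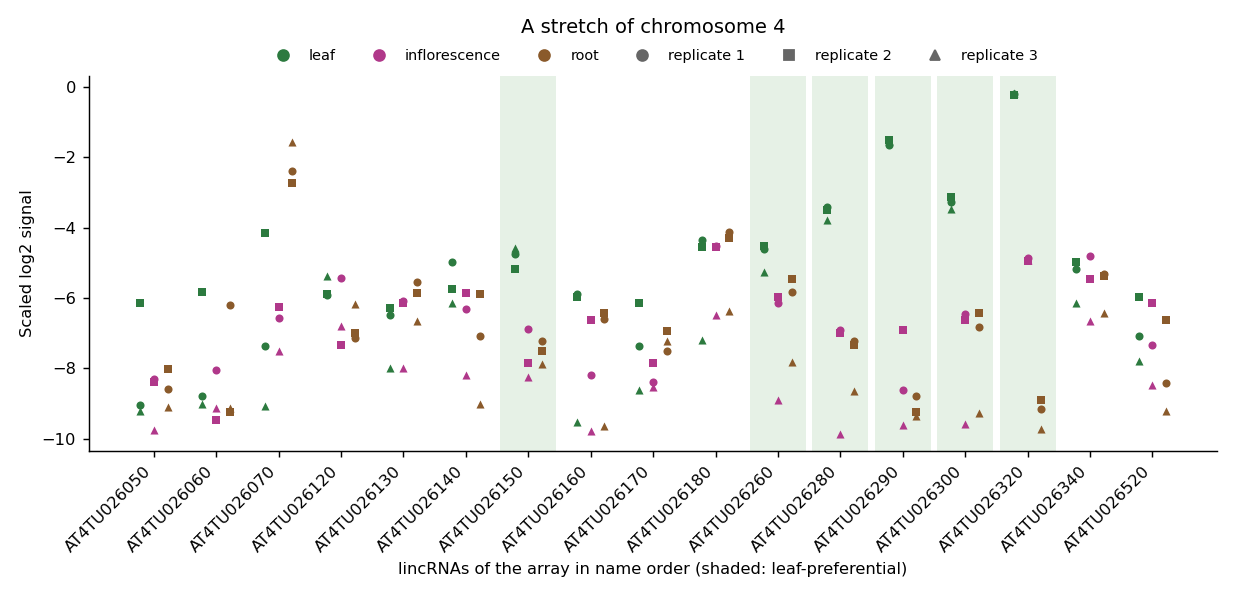
Scaled log2 signal (vertical axis) on each array for the 17 lincRNAs of the array named from AT4TU026050 to AT4TU026520 on chromosome 4, in name order along the horizontal axis, with the 6 leaf-preferential ones shaded. Leaf points stand apart in the 5 adjacent lincRNAs, most widely in AT4TU026290, and the root points stand apart in AT4TU026070.

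The array design carries several probes per lincRNA, which allows a second look at each. Of the 120, 116 had 3 probes and 4 had 2, giving 236 other probes that the rule did not read. These share the RNA samples and slides of the chosen probe. Of the 236, 38 were not higher in leaf than in both other organs on the scaled signals. That number is too low a measure of disagreement, because undetected probes can read high on leaf replicate 2. Its lowest signal well above background was -4.05, against -6.81 to -7.62 on the other arrays. In the authors' table more than these 38 had a negative margin. For example, 1 other probe of AT1TU014680 had scaled differences of 1.19 and 0.996 but a table margin of -0.09. At least 2 leaf arrays were well above background for 66, of which 60 were higher in leaf than in both others and 41 met the rule. Detection in leaf favours a high leaf value, so the share among the 66 is a description only. For 78 lincRNAs no other probe was detected on 2 leaf arrays, so the pattern rests on 1 probe there.

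All other probes met the rule in 15 lincRNAs: AT4TU026290, AT4TU026320, AT2TU063000, AT4TU026300, AT3TU062330, AT3TU053960, AT2TU035190, AT2TU034760, AT1TU092330, AT3TU021870, AT1TU056980, AT3TU040390, AT3TU080550, AT2TU017340 and AT1TU053970. In AT4TU026290 the other margins were 6.53 and 5.15, beside 6.57 for the chosen probe. In AT2TU063000 they were 4.33 and 4.25, beside 4.34, and in AT3TU062330 4.03 and 4.46, beside 4.01. The probes of AT2TU063000 lay closest together, and 1 probe of AT4TU026290 lay below the others. In AT4TU026320 the other probes had margins of 2.16 and 2.17, beside 4.80.

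Margins below the largest ones could also be even, as in 2 lincRNAs chosen after their values were seen. AT2TU017340 gave -2.37, -2.36 and -2.38 in leaf, -3.86, -4.09 and -3.98 in inflorescence and -4.13, -4.34 and -4.41 in root, with leaf at 3.04-fold and 3.79-fold over them. AT1TU056980, whose table margin of 2.23 lay above the median, gave -0.51, -0.47 and -0.31 in leaf. It gave -3.23, -3.15 and -3.32 in inflorescence and -2.54, -2.61 and -2.45 in root. Its root values lay above its inflorescence values without overlap, by 0.70 ± 0.19 units, or 1.62-fold. That is under the 2-fold limit, and the adjusted p was not under 0.05, so it was not called (limma adjusted p = 0.0509, and 0.0209 with the replicate block).

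Some other probes went against the chosen one. Of the 66 detected on at least 2 leaf arrays, 6 were not higher in leaf than in both other organs, in AT1TU011580, AT1TU022720, AT1TU097280, AT2TU032020, AT3TU012660 and AT4TU059670. In AT2TU032020 the chosen probe had a leaf margin of 2.67 in the table, whereas its other probes had margins of -1.60 and -4.71. Both were higher in inflorescence than in leaf, by 1.75 and 4.70 units on the scaled signals (leaf minus inflorescence of -1.75 and -4.70). Probes not detected in leaf also went the other way: 1 of AT1TU069900 had a margin of -5.14, with leaf minus root at -4.78 on the scaled signals, and others had margins of -2.21 in AT3TU040440, -2.10 in AT5TU074650 and -1.99 in AT1TU097140. The probe names do not say whether these probes read the same transcript.

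**Figure D5:**
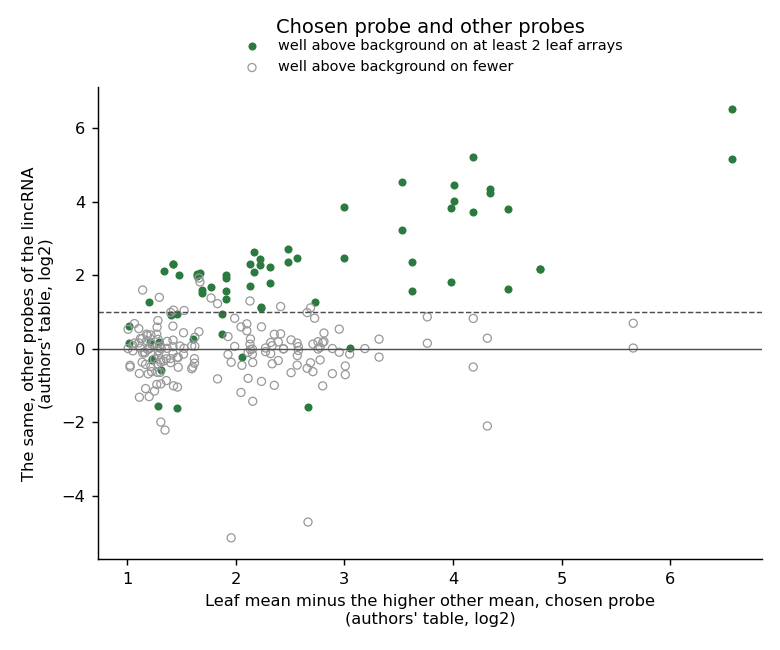
Leaf mean minus the higher other mean in the authors' table (log2), for the chosen probe of each lincRNA (horizontal axis) and for its other probes (vertical axis), filled where the other probe was well above background on at least 2 leaf arrays. Filled points spread along the range up to 6.53, and the lowest points are open, at -5.14 in AT1TU069900 and -4.71 in AT2TU032020.

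The number of leaf-preferential lincRNAs depended on the values the rule was given. It was 147 on the scaled scanner signals, 98 of them among the 120, and 39 with the normexp background model, 38 of them among the 120. Without leaf replicate 2 the rule took 172, including 112 of the 120.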

How the data were processed

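RNA of 3 organs was measured on 9 one-colour arrays, grouped by the sample titles. The scanner files hold processed signal intensities that, per the file headers, version 10.5.1.1 of Agilent Feature Extraction made under GE1_105_Dec08. The deposited value table holds the authors' log2 values, whose column medians lie at 1.41; the sources used here do not state its normalisation, and it correlated with the log2 processed signals of each array at r of 0.966 to 0.998. The rule was applied to that table. For the tests, log2 processed signals were scaled to the 75th percentile of 1345 probes, control and outlier spots were left out (71 gene spots), 1 probe stood for each gene, and limma 3.58.1 (R 4.3.3) was fitted to all 9 arrays with Benjamini-Hochberg adjustment over 3308 genes. The procedure was run on simulated data with independent noise on each array. That setting leaves out deviations shared between arrays, so nothing about these data is read from it. The number of arrays limits the precision. Same-numbered arrays of different organs deviated together (r of 0.267 to 0.769), and 7 of 9 arrays correlated best with their own number. The titles give only replicate numbers, and inflorescence came from other plants than leaf and root. The replicate 3 arrays were also those of slide 2, with r of 0.708 to 0.769, so number and slide cannot be told apart there. Whether the numbers mark a pairing is thus not known. The calls given are from the planned fit without the replicate block, and the closing section gives the blocked counts. normexp was run on the median and background signals, as mean signals were not used here. The lincRNAs named are the 12 with the largest margin, up to 5 called with the largest difference between inflorescence and root in each direction, the 3 on each side of the limit, those near another by name, those whose probes disagree, and others said to be chosen later. The 120 and the lists were chosen with earlier results of these data known. Alternatives were other scalings and backgrounds, filters, probe means, slide and replicate blocks and leaving out each array.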

Additional observations from a re-analysis of the deposited data

How the results depend on the processing

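The rule took 39 lincRNAs with normexp, 33 with array-median scaling, 49 with the mean of all probes, 79 when all 3 leaf arrays had to detect them and 55 with a margin of 2; leaving out 1 array gave 85 to 172, and quantile normalisation, the 75th percentile of all probes and the scaled scanner signals (the last chosen after seeing the data) gave 121, 109 and 147. Of the 120, the numbers higher and lower in inflorescence than in root were 22 and 2. They were 2 and 0 with normexp, 10 and 1 with the 75th percentile of all probes, 11 and 1 with array-median scaling, 9 and 1 with the mean of all probes, and 7 and 1 with a common floor, which leaf replicate 2 sets. On slide 1 alone the numbers of the 120 were 33 and 2, beside 246 and 294 of all tested genes. Leaving out 1 array gave 17 to 24 of the 120 higher and 2 lower. With the replicate block the numbers of the 120 were 27 and 2, including the 24 called without it, so that 5 were added and no call was lost. All tested genes then gave 263 and 363. Over all tested genes the 212 higher and 257 lower calls became 53 and 39 with normexp, 121 and 163 with the common floor, 167 and 167 with the 75th percentile of all probes, and 178 to 231 and 193 to 274 without 1 array. They became 157 and 189 with array-median scaling and 187 and 172 with the mean of all probes. The share of all calls that were higher was 57.6% with normexp, against 45.2%, and the median of all genes was 0.33 log2 units, against -0.23. The number of the 120 with a positive difference was 24 with the common floor, 115 with normexp and 64 to 104 without 1 array. Of the single values for named lincRNAs under the alternatives, 182 kept direction and call, 28 lost the call and 0 reversed. The cause of these shifts was not tested. Signal over background limits the folds of the 27 lincRNAs undetected in root and the 16 undetected in inflorescence.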
